A study of Mus musculus with 12 samples.

Results

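The cytosolic ribosomal protein genes are the 85 rows, of 19680 genes in the deposited table, whose symbol names a protein of the large (Rpl) or small (Rps) cytosolic subunit, together with Rplp0, Rplp1, Rplp2, Rpsa and Fau. Rows with "-ps" in the symbol, which mark pseudogenes, and the S6 kinase genes were left out. Of the members, 51 belong to the large and 34 to the small subunit. The row with the symbol Rps4y2 carries the Entrez identifier of the gene that RefSeq now names Rps4l and annotates as a transcribed pseudogene. It was kept because the rule on symbols takes it in.

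The measurements are RNA-seq read counts of total RNA from CJ9, a mouse embryonic stem cell line, on day 5 of differentiation toward either endoderm or mesoderm. In each lineage 3 libraries came from wild type cells and 3 from cells labelled arid4b∆, which gives 4 groups of 3 libraries. Arid4b is a subunit of the SIN3 histone deacetylase complex, and the series asks about its role in lineage commitment. Whether each genotype is 1 clone, and whether replicate libraries stand for separate cultures, the labels do not say. The p-values therefore reflect only how far these libraries scatter, and that scatter may be technical.

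A ribosome joins a small subunit, which reads the mRNA, and a large subunit, which forms the peptide bonds, and each is built from ribosomal RNA and proteins that are made in nearly equal numbers. In mammals most ribosomal protein mRNAs begin with a cytidine and a run of pyrimidines (the TOP tract), through which their translation follows mTOR signalling, and many of their introns hold snoRNAs that guide the modification of ribosomal RNA. Some members have a second copy with its own pattern of expression, such as Rpl3l in muscle and Rpl10l and Rpl39l in male germ cells.

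Promoter windows of RefSeq (GRCm38.p6, 250 bases before to 50 after an annotated start) were at hand for 64 of the 85 members, with 76 windows in all. The windows below run 25 bases to each side of the annotated start and are shown for the members that the results turn on and for 2 classic examples, Rps6 (the target of S6 kinase) and Fau (a ubiquitin-like protein fused to a small subunit protein). Capitals mark the first run in the window of a C followed by at least 5 pyrimidines on the transcribed strand, later runs are left in lower case, and a window without capitals has no such run within 25 bases of the start.
Rps6, chr4:86857343-86857392, minus strand: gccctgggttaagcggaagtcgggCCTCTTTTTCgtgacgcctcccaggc
Fau, chr19:6057922-6057971, plus strand: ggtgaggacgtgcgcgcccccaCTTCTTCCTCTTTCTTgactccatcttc
Rpl13, chr8:123102325-123102374, plus strand: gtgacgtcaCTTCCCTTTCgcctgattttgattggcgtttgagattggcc
Rpl39, chrX:37085198-37085247, minus strand: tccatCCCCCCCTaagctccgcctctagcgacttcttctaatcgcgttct
Rps4x, chrX:102189367-102189416, minus strand: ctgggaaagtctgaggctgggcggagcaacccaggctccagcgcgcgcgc
Rpl10, chrX:74270791-74270840, plus strand: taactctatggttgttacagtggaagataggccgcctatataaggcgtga
Such a run was found in 46 of the 76 member windows (60.5%) and in 35.0% of all 32851 windows. A run can lie wholly before the annotated start, as the marked runs of Rpl13 and Rpl39 do, and is then outside the annotated transcript. Whether a transcript begins with a TOP tract was not tested, for windows with or without capitals. Other motifs were searched in the full 300 bases and on both strands. The core of ETS and GABP sites (CCGGAAG) was found in 35.5% of member windows and 8.86% of all windows. For the core of YY1 sites (AAGATGGC) the shares were 11.8% and 2.75%. The GC box (GGGCGG) stood in 60.5% of member windows and 35.7% of all, and the TATA box (TATAAA) in 9.21% and 13.6%. The motifs are matches of letters and were not tied to any change in these libraries.

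Rps4y2 and Rps4x form the pair on which the largest difference rests, and their transcripts (GENCODE M21) were aligned. Rps4x, on chromosome X, encodes the small subunit protein eS4. Over 816 aligned columns the transcripts were identical at 653 (80.0%), with a longest identical run of 38 bases, and no stretch of 50 bases of the Rps4y2 transcript occurs in that of Rps4x. The first 120 bases of the Rps4x reading frame and the aligned bases of Rps4y2 (listed as Rps4l) are printed with the 26 differing bases in capitals.
Rps4x, bases 95 to 214 of the transcript: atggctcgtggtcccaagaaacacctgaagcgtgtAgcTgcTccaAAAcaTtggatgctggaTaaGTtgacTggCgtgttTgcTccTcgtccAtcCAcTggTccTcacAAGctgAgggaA
Rps4l, bases 55 to 174 of the transcript: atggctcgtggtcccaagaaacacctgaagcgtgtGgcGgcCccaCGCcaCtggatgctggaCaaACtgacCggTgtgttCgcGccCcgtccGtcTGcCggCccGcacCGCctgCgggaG

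Total counts per library lay between 10352411 and 35664057, and 1949299 to 6678893 remained after the ribosomal RNA precursor Rn45s was left out. Arid4b stood at 41.1 ± 3.98 CPM (read counts relative to the TMM-scaled library size) in wild type and 46.3 ± 4.29 in arid4b∆ endoderm, and at 42.1 ± 4.78 and 44.7 ± 2.99 in mesoderm (SD, n = 3). Whole-gene counts therefore do not check the deletion, and every direction below rests on the libraries' labels. Summed endoderm markers (7 genes, Foxa2 and Sox17 among them) were 151 to 231 CPM in wild type and 7.1 to 15.2 in arid4b∆ endoderm, and summed mesoderm markers (8 genes, T and Mesp1 among them) 185 to 440.0 and 8.02 to 14.2 in mesoderm. Mesp1 was at 0 in all 3 arid4b∆ mesoderm libraries. The arid4b∆ libraries labelled endoderm and mesoderm therefore held little of either lineage's markers. Summed pluripotency markers (8 genes, Pou5f1 among them) were 384 to 444 CPM in wild type and 458 to 502 in arid4b∆ endoderm, and 324 to 400.0 and 483 to 555 in mesoderm, without overlap. Among them Utf1 and Sox2 were called higher and Nanog lower in both lineages. Utf1 went from 49.0 to 118 CPM in endoderm and from 14.3 to 104 in mesoderm. Pou5f1 was not called, at 243 and 256 CPM in endoderm and 224 and 253 in mesoderm (edgeR adjusted p = 0.69 and 0.249). Of 11 tested fibroblast and feeder genes, 11 lay above 0 in endoderm (median log2 fold change 1.35, 5 called higher) and 9 in mesoderm (median 0.82, 1 called higher and Vim lower). Their summed level, mostly Fn1, was 261 to 358 CPM in wild type and 361 to 856 in arid4b∆ endoderm, and 564 to 1050.0 and 424 to 947 in mesoderm. The part of these cell differences in the results below was not tested. In bulk RNA, fewer cells of a type and less RNA per cell cannot be told apart.

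Ribosomal protein mRNAs were abundant in every library. Of the 85 members, 82 passed the low-count filter and were tested, and 77 of these lay in the top 10% of all 11635 tested genes by mean CPM. The 3 untested members were the tissue-restricted copies. Rpl3l held 5 counts in all 12 libraries together, Rpl10l held 11 and Rpl39l held 16. In the arid4b∆ mesoderm libraries Rpl39l held 3, 3 and 4 counts and Rpl10l 3, 0 and 4, and in any other library either held at most 2. These values are near the floor of 3 counts per library, and no fold is given.

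Levels were compared between members per kilobase of the shortest principal GENCODE transcript. Rps12, a small subunit protein, was highest at 876 CPM per kilobase. Rpl41, a very short large subunit protein, followed at 829.7, and Rpl23a, at the exit of the peptide tunnel, at 642. Among tested members the lowest were Rpl22l1, the copy of Rpl22, at 32.2, Rps4y2 at 40.6 and Rpl7l1 at 43.3 CPM per kilobase. Each partner was higher than its copy on this scale, with 270.0 for Rpl22, 426 for Rps4x, 355 for Rpl7, and 459.5 for Rps27 against 99.9 for Rps27l. The value of 56.0 for Rps20 rests on the only transcript available for it, of 3706 bases. Of the tested members, 4 had nearly the same counts as another row in every library, with a summed difference of at most 1% of the member's counts, so their levels and fold changes are uncertain. Rpl26 shared all 11970 of its counts with the gene model Gm15772, Rpl30 differed by 3 counts of 5860 from Gm12191, Rpl34 by 16 of 5272 from Rpl34-ps1, and Rps27 by 43 of 7633 from Gm9846.

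The members moved as a block from library to library. Their summed level was 22826, 19213 and 19819 CPM in the wild type endoderm libraries 1 to 3 and 21708, 17096 and 19694 in arid4b∆ endoderm. In mesoderm it was 20535, 20314 and 16229 CPM in wild type and 18940.0, 18997 and 20065 in arid4b∆. The groups overlapped in both lineages. Group means were 20620 ± 1935 and 19500 ± 2312 CPM in endoderm and 19030 ± 2425 and 19330 ± 634 in mesoderm (SD, n = 3). As a share of counts without Rn45s, Mir6236 and Lars2, which need no scaling factor, the members held 5.18% ± 0.438 of wild type and 4.85% ± 0.526 of arid4b∆ endoderm, and 4.80% ± 0.528 and 4.80% ± 0.151 in mesoderm.

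Within a group the mean deviation of the members from their group means reached from −0.23 in wild type mesoderm library 3 to 0.17 in arid4b∆ endoderm library 1, on the log2(CPM + 0.5) scale. After the library's mean was taken out, the median SD over members within a library was 0.08, against a median SD of a member over the libraries of its group of 0.16. The members also split by transcript length. In 1 library of each group (wild type endoderm 2, arid4b∆ endoderm 2, wild type mesoderm 3 and arid4b∆ mesoderm 2) the ratio of summed counts of the 28 shortest members (up to 577 bases) to the 28 longest (860.0 bases and more) was 0.438 to 0.458, and in the other 8 libraries 0.477 to 0.517. Across the 82 members, which share 1 library each time, Spearman's rho of deviation with length was 0.42 to 0.52 in those 4 libraries and −0.39 to −0.30 in the other 8. Results are therefore also given without these 4 libraries where they change.

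**Figure D1:**
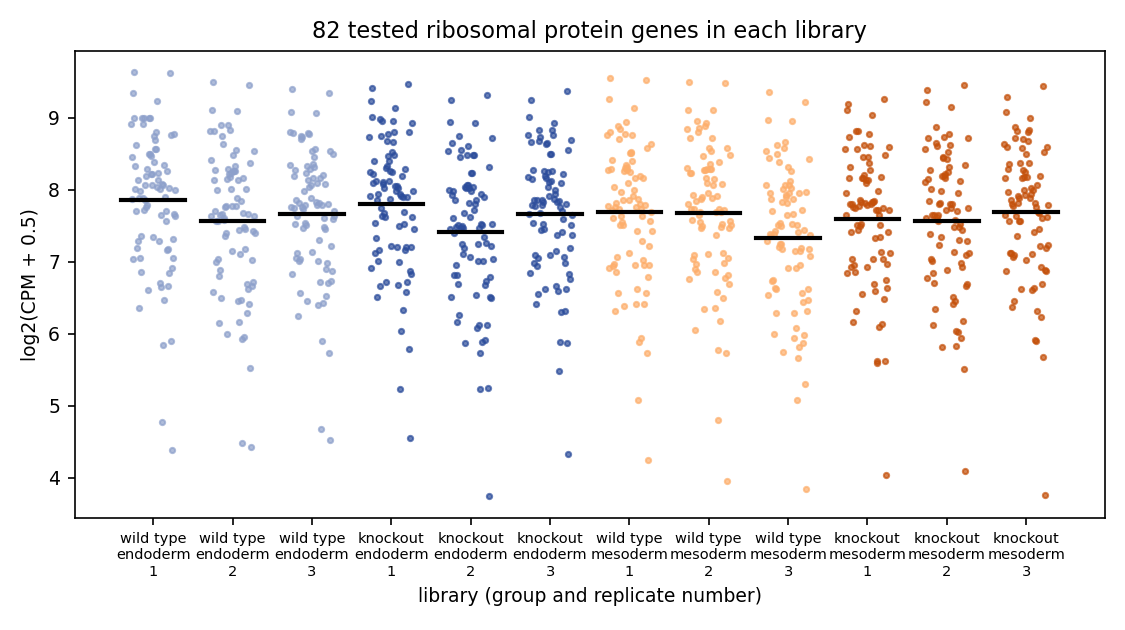
Each point is 1 of the 82 tested ribosomal protein genes in 1 library, as log2(CPM + 0.5), and each bar is the mean over the genes. The bars lie between 7.33 in wild type mesoderm library 3 and 7.86 in wild type endoderm library 1, and the libraries of the 4 groups overlap.

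In endoderm, ribosomal protein genes differed little between arid4b∆ and wild type. The median log2 fold change of the 82 tested members was −0.08, beside −0.004 over all tested genes, and the central 80% of members lay between −0.19 and 0.05. The median ranged from −0.18 to 0.03 when 1 library was left out, and turned positive without arid4b∆ endoderm library 2. With edgeR's quasi-likelihood test, 1 member was called higher and 0 lower at an adjusted p below 0.05, while 5.78% of all tested genes were called higher and 6.92% lower. An unadjusted p below 0.05 was reached by 7 members. DESeq2 called 2 members and limma-voom 3, and edgeR called 3 without wild type mesoderm library 3, which shares in the estimate of the spread.

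The member that rose was Rps4y2 (chromosome 6, 148354656 to 148355596). It stood at 26.9, 21.8 and 25.2 CPM in the wild type endoderm libraries and at 37.0, 37.4 and 44.2 in arid4b∆. All 3 arid4b∆ libraries lay above all 3 of wild type. The rise was 1.63-fold (log2 fold change 0.70 ± 0.13 SE, edgeR adjusted p = 0.00104), with adjusted p from 6.67e-06 to 0.0908 over 22 alternatives. It was not called with total counts and no scaling factor, which moved the median of all genes to −0.15. Of all 11635 tested genes, 1711 lay higher and 1802 lower without overlap in this comparison, beside 1 and 5 of the 82 members. In mesoderm these were 1834 and 1984 genes, beside 5 and 0 members.

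Rps4x (chromosome X, 102184941 to 102189391) had the largest negative value in endoderm. It stood at 514, 479.7 and 443 CPM in wild type and at 411, 359.5 and 397 in arid4b∆, so that the groups did not overlap. The log2 fold change of −0.30 ± 0.10 SE missed the threshold (edgeR adjusted p = 0.0526). Over 22 alternatives adjusted p lay between 0.0236 and 0.3, and 8 of them called it lower, among them DESeq2 (0.0308), limma-voom (0.0244), the 6 endoderm libraries alone (0.0442), no filter (0.0464), Mir6236 and Lars2 left out (0.0465), and the fits without arid4b∆ endoderm library 1 (0.0499) or wild type mesoderm library 3 (0.0236). The highest value, 0.3, came without the 4 libraries low in short members.

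Rpl10 (chromosome X, 74270816 to 74273135), which joins the large subunit late, near the peptidyl transferase centre, was next by adjusted p. It stood at 352, 342 and 326 CPM in wild type and 304, 255 and 289.7 in arid4b∆ endoderm, without overlap, with a log2 fold change of −0.27 ± 0.10 SE and no call (edgeR adjusted p = 0.0783). It was called with limma-voom (0.0429) and without wild type mesoderm library 3 (0.0444). The following members were Rps27a, a ubiquitin fusion (log2 fold change −0.27, adjusted p = 0.155), Rpl23, a large subunit protein that also binds Mdm2 (−0.28, 0.172), and Rpsa, a small subunit protein also known as the laminin receptor (−0.22, 0.172).

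In mesoderm most members again differed little. The median log2 fold change was 0.04, beside 0.007 over all genes, and the central 80% of members lay between −0.13 and 0.20. The edgeR test called 2 members higher and 0 lower, while 8.97% of all tested genes were called higher and 10.1% lower. An unadjusted p below 0.05 was reached by 5 members. The sign of the median rests on 1 library and on the scaling: it was −0.07 without wild type mesoderm library 3, the library with the lowest level of members, −0.04 without the 4 libraries low in short members, and −0.16 with total counts and no scaling factor, where the median of all genes was −0.22.

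Rps4y2 rose in mesoderm as well. Its level was 33.3, 27.4 and 33.4 CPM in wild type and 47.7, 65.1 and 59.7 in arid4b∆, again without overlap. The rise was 1.79-fold (log2 fold change 0.84 ± 0.13 SE, edgeR adjusted p = 8.35e-05), and all 22 alternatives called it, with adjusted p from 3.12e-09 to 0.0247. Rps4y2 lies on the opposite strand inside the span of Tmtc1, a gene of protein O-mannosylation, and whether counting used strand is not given in the sources used here. Tmtc1 itself held 2.26 ± 0.367 and 4.62 ± 1.09 CPM in endoderm and 1.74 ± 1.12 and 6.49 ± 1.38 in mesoderm (wild type and arid4b∆, SD, n = 3), and was called higher in mesoderm (log2 fold change 1.65 ± 0.36 SE, edgeR adjusted p = 0.00232) but not in endoderm (1.06 ± 0.36, adjusted p = 0.0539). The part of reads from Tmtc1 in the counts of Rps4y2 was not tested.

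Rpl13 (chromosome 8, 123102350 to 123105244), a large subunit protein, was the second member called higher in mesoderm. It stood at 365, 374 and 278 CPM in wild type and 439.9, 437 and 448 in arid4b∆, without overlap, a 1.31-fold rise (log2 fold change 0.39 ± 0.13 SE, edgeR adjusted p = 0.0378). The call held in 15 of 22 alternatives. It was lost without wild type endoderm library 3 (adjusted p = 0.0523), without wild type mesoderm library 3 (0.193), without any 1 of the arid4b∆ mesoderm libraries (0.0773, 0.0763 and 0.0934 for 1 to 3), without the 4 libraries low in short members (0.159) and with total counts (0.579). In endoderm Rpl13 stood at 415.0, 322 and 352.5 CPM in wild type and 498, 357.5 and 455 in arid4b∆, where the groups overlapped. The difference of 0.27 ± 0.13 SE (log2) was not called there (edgeR adjusted p = 0.195).

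Among the other members in mesoderm, Rps4x was at 440.1, 474 and 383 CPM in wild type and 352, 352 and 385 in arid4b∆. The groups overlapped by the highest arid4b∆ library, and the log2 fold change of −0.25 ± 0.10 SE was not called (edgeR adjusted p = 0.0935), except without wild type mesoderm library 3 (0.0312). Rpl36, a small large-subunit protein, had a log2 fold change of 0.35 ± 0.16 SE (adjusted p = 0.139) and was called without the low-count filter (0.0152). Rpl18 (0.26, adjusted p = 0.153) and Rpsa (−0.19, adjusted p = 0.216) followed.

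**Figure D2:**
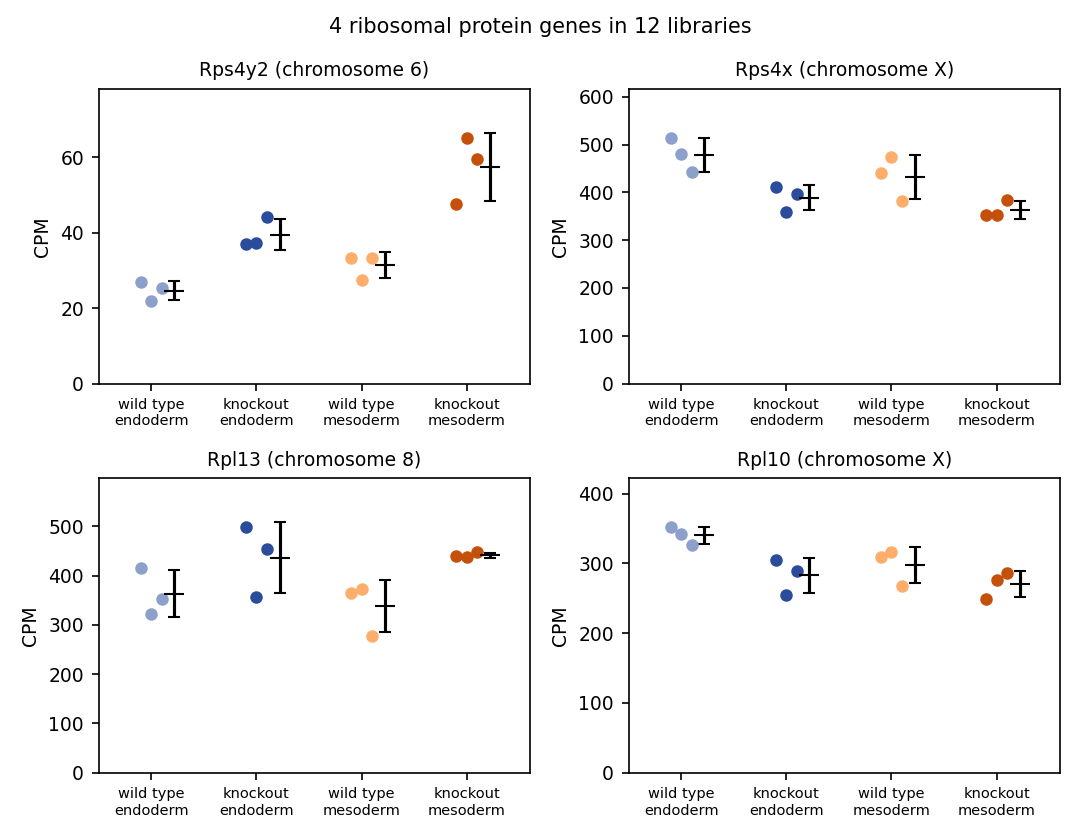
CPM of Rps4y2, Rps4x, Rpl13 and Rpl10 in the 12 libraries (points), with the mean and SD of each group of 3 beside them. Rps4y2 is higher in arid4b∆ (knockout) than in wild type without overlap in both lineages, from 24.6 to 39.5 CPM in endoderm and from 31.4 to 57.5 in mesoderm on average.

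The pair Rps4y2 and Rps4x went apart within each library, which needs no scaling. Rps4y2 counts were 5.23%, 4.55% and 5.70% of Rps4x counts in wild type endoderm and 9.01%, 10.4% and 11.1% in arid4b∆. In mesoderm they were 7.56%, 5.78% and 8.73% in wild type and 13.6%, 18.5% and 15.5% in arid4b∆. The log2 ratio rose from −4.28 ± 0.16 to −3.30 ± 0.16 in endoderm and from −3.79 ± 0.30 to −2.67 ± 0.23 in mesoderm (SD, n = 3), with no overlap in either lineage. The smallest Rps4y2 count in a library was 53, in wild type mesoderm library 2. No test was run on the ratio, since both genes were chosen with their changes known.

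The ratio of summed counts of large to small subunit members also separated the genotypes in these libraries. It was 1.447, 1.465 and 1.472 in wild type and 1.486, 1.5 and 1.518 in arid4b∆ endoderm, and 1.461, 1.473 and 1.467 in wild type and 1.498, 1.529 and 1.526 in arid4b∆ mesoderm. The lowest arid4b∆ value, 1.486, lay above the highest wild type value, 1.473. The shift is small, from 1.461 ± 0.013 to 1.501 ± 0.016 in endoderm and from 1.467 ± 0.006 to 1.518 ± 0.017 in mesoderm (SD, n = 3), and it is a sum dominated by the most abundant members: the median log2 fold changes of large and small subunit members were −0.09 and −0.08 in endoderm and 0.03 and 0.05 in mesoderm.

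**Figure D3:**
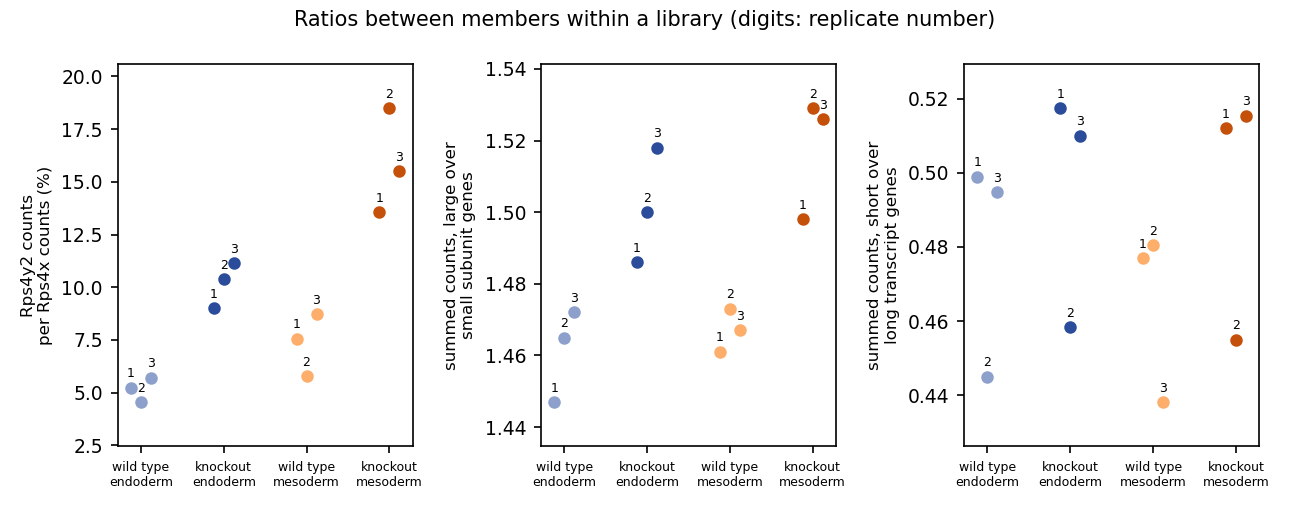
Ratios between members within each of the 12 libraries: Rps4y2 counts as a percent of Rps4x counts, summed counts of large over small subunit members, and of the 28 shortest over the 28 longest members, with axes that do not start at 0. The first 2 ratios are higher in every arid4b∆ (knockout) library than in wild type of the same lineage, and in the third the libraries low in short members (0.438 to 0.458) stand below the rest, 1 in each group.

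Rpl13 lay on a chromosome whose other genes were shifted too, and Rps4x and Rpl10 on chromosome X, whose genes had a slightly negative median. Rpl13, on chromosome 8, had log2 fold changes of 0.27 in endoderm and 0.39 in mesoderm. Over the 648 tested genes of chromosome 8 the median was 0.23 in endoderm and 0.27 in mesoderm. Of these 648 genes, 120 and 162 were called higher, beside 5.78% and 8.97% of all tested genes. A further 20 and 28 were called lower, beside 6.92% and 10.1% of all tested genes. Among the 4 members on chromosome X all 8 log2 fold changes were negative, under every setting tried: Rps4x −0.30 and −0.25, Rpl10 −0.27 and −0.13, Rpl39 −0.22 and −0.15, and Rpl36a −0.15 and −0.18 in endoderm and mesoderm. At the settings of the edgeR test used throughout none of them was called, and of the alternatives some called Rps4x or Rpl10, as given above. Rpl39 and Rpl36a are small large-subunit proteins, Rpl39 lining the peptide exit tunnel. The 412 tested genes of chromosome X had medians of −0.07 and −0.17. Of them 54 (13.1%) and 85 (20.6%) were called lower, beside 6.92% and 10.1% of all tested genes, and 21 and 28 higher. In endoderm the 927 tested genes of chromosome 11 had a lower median, −0.10, than those of chromosome X. The part of a difference in chromosome dosage in these values was not tested.

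**Figure D4:**
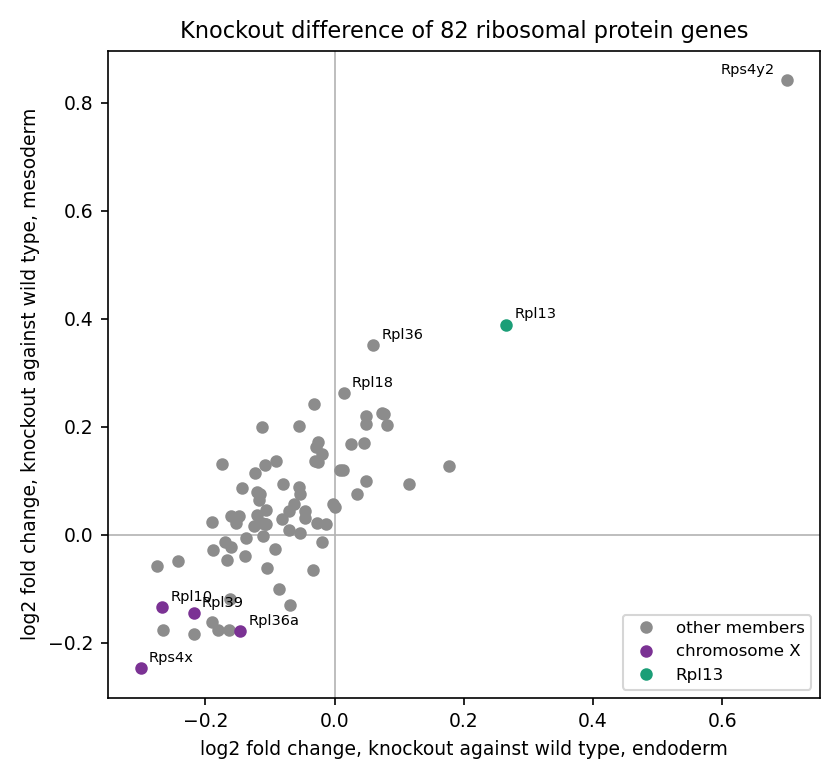
Log2 fold change of arid4b∆ (knockout) against wild type for each of the 82 tested members in endoderm (horizontal) and mesoderm (vertical), with Rpl13 and the members on chromosome X in colour. Most members lie within 0.3 of 0 in both lineages, Rps4y2 stands apart at 0.70 and 0.84, Rpl13 is positive on both axes and the 4 chromosome X members negative on both.

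The other members fixed by role moved little. In the stalk of the large subunit, which recruits translation factors, Rplp0 had log2 fold changes of −0.11 and 0.02, Rplp1 of −0.03 and 0.24 and Rplp2 of 0.05 and 0.22 in endoderm and mesoderm. Rpl5 and Rpl11, which form the 5S particle and can bind Mdm2, had −0.16 and −0.12, and −0.09 and 0.14. Rps19, mutated in Diamond-Blackfan anaemia, had −0.14 and 0.09, Fau −0.06 and 0.09, and Rps27a −0.27 and −0.18. Of the copies, Rpl22l1 had −0.24 and −0.05 beside −0.11 and 0.13 for Rpl22, Rps27l −0.07 and 0.04 beside −0.06 and 0.06 for Rps27, and Rpl7l1 −0.01 and 0.02 beside −0.16 and −0.02 for Rpl7. Rpl3, the partner of the untested Rpl3l, had −0.14 and −0.01. None of these members was called by edgeR in either lineage.

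No member's arid4b∆ difference was shown to depend on the lineage. In the edgeR test of the interaction (the difference in endoderm minus that in mesoderm), 0 members were called higher and 0 lower, where 0.627% and 0.774% of all tested genes were. An unadjusted p below 0.05 was reached by 0 members, and DESeq2 and limma-voom called 0. The median interaction was −0.13 (log2), beside −0.001 over all genes, and 75 of 82 members were below 0, but without the 4 libraries low in short members the median was 0.01, and without wild type mesoderm library 3 alone it was −0.002. The smallest adjusted p were those of Rpl19 (log2 −0.30, adjusted p = 0.627), Rpl22 (−0.24, 0.64), Rps21 (−0.31, 0.657), Rps9 (−0.26, 0.67), Rpl18 (−0.25, 0.698) and Rpl30 (−0.20, 0.709), and the highest value was that of Rps7 (0.06, 0.947). For Rps4y2 the interaction was −0.14 ± 0.19 SE (adjusted p = 0.875).

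Between the lineages, wild type endoderm held slightly more of the members than wild type mesoderm, by a median of 0.14 (log2), beside 0.008 over all genes, with 81 of 82 above 0. The edgeR test called 0 higher and 0 lower, against 4.41% and 5.43% of all genes. An unadjusted p below 0.05 was reached by 4 members, and DESeq2 and limma-voom called 0. The median was 0.01 without wild type mesoderm library 3 and 0.08 without the 4 libraries low in short members. The smallest adjusted p belonged to Rps4y2 (log2 fold change −0.39, adjusted p = 0.0895), Rpl22l1 (0.44, 0.156), Rps21 (0.33, 0.171), Rpl23 (0.27, 0.228), Rpl27 (0.22, 0.245) and Rpl10 (0.20, 0.257). Rps21, at the solvent side of the small subunit, was called without wild type endoderm library 2 (0.0404) and without the filter (0.0341). Rpl22l1 stood at 20.4, 21.2 and 22.7 CPM in wild type endoderm and 18.5, 14.99 and 13.8 in wild type mesoderm, without overlap. Of all 11635 tested genes, 1411 lay higher and 1442 lower without overlap here, beside 3 and 1 of the 82 members.

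In the arid4b∆ cells the median difference between endoderm and mesoderm was 0.009 (log2), beside −0.007 over all genes. Here 0 members were called higher in endoderm and 1 lower, against 0.945% and 0.902% of all genes. The member was Rps4y2, at 39.5 ± 4.07 CPM in endoderm and 57.5 ± 8.93 in mesoderm (SD, n = 3), with no overlap between 37.0 to 44.2 and 47.7 to 65.1. Its log2 fold change was −0.54 ± 0.12 SE (edgeR adjusted p = 0.0241), and the call held in 15 of 22 alternatives. It was lost with DESeq2 (0.0533), total counts (0.482), without the 4 libraries low in short members (0.387), and without arid4b∆ endoderm library 1 (0.0634) or 2 (0.146) or arid4b∆ mesoderm library 2 (0.155) or 3 (0.136). Rps15a (0.18, adjusted p = 0.444), Rpl22l1 (0.25, 0.67), Rpl29 (0.14, 0.68) and Rps27a (0.14, 0.723) had adjusted p well above the threshold. Without overlap, 1115 of all 11635 tested genes lay higher and 1003 lower in this comparison, beside 1 and 1 of the 82 members.

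Many genes that build ribosomes rose in arid4b∆ mesoderm. Of 32 ribosome biogenesis genes (nucleolar processing factors, snoRNA-protein components and RNA polymerase I factors), the edgeR test called 17 (53.1%) higher and 0 lower in mesoderm, where 8.97% and 10.1% of all tested genes were, with a median log2 fold change of 0.43, beside 2 of 82 members and a median of 0.04. The difference between the lists was not tested. The leading genes were Ddx21, a nucleolar helicase (154 ± 21.6 to 241 ± 19.4 CPM, SD, n = 3; log2 fold change 0.64, edgeR adjusted p = 0.000172), Nop2, a ribosomal RNA methyltransferase (0.69, 0.000261), and Taf1d, a subunit of the RNA polymerase I factor SL1 (0.57, 0.000414). In endoderm 2 of the 32 were called higher, Rrp9 (0.64, 0.00466) and Ddx21 (0.39, 0.0159), near the share of all genes (5.78%), and Bop1 was not (0.38, 0.0512), with a median of 0.15. Without the 4 libraries low in short members neither Rrp9 nor Ddx21 was called in endoderm (0.0669 and 0.12). The count of 17 fell to 12 without wild type mesoderm library 3, to 9 without the 4 libraries low in short members and to 0 with total counts, where the median of the list was 0.21 beside −0.22 over all genes. The interaction called 0 of the 32, with 10 at an unadjusted p below 0.05. DESeq2 and limma-voom also called 0, and edgeR called 1 lower without wild type mesoderm library 1.

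Other genes tied to translation included Eif3f, which fell. Of 19 ribosome-linked translation genes (elongation factors, eIF3 subunits and others), 0 were called higher and 1 lower in endoderm and 1 higher and 1 lower in mesoderm, with medians of −0.09 and −0.03. In each direction this is at most 5.26% of the list, beside 5.78% higher and 6.92% lower of all genes in endoderm and 8.97% and 10.1% in mesoderm. Eif3f, an eIF3 subunit, fell in both lineages, from 117 ± 8.77 to 87.7 ± 5.32 CPM in endoderm (−0.42 ± 0.09 SE on the log2 scale, edgeR adjusted p = 0.00383) and from 122 ± 7.54 to 88.3 ± 4.98 in mesoderm (−0.47 ± 0.09, 0.00124). Without the 4 libraries low in short members it was called in mesoderm (0.0271) and not in endoderm (0.0561), and the 1 higher call of the list in mesoderm was lost. Gnb2l1, now named Rack1, had −0.22 in endoderm (0.161), and Eef1a1 −0.27 in mesoderm (0.108).

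Of 76 mitochondrial ribosomal protein genes, 1 was called higher and 0 lower in endoderm and 5 higher and 1 lower in mesoderm, with medians of −0.02 and 0.13. The 6.58% called higher in mesoderm lies below the 8.97% of all tested genes. The leading genes were Mrpl49 in endoderm (log2 fold change 0.47, edgeR adjusted p = 0.0273) and Mrpl34 (0.86, 0.00802), Mrps18b (0.56, 0.00907) and Mrpl20 (0.66, 0.0243) in mesoderm. Without the 4 libraries low in short members 0 were called in either lineage, and without wild type mesoderm library 3 the count called higher in mesoderm was 0.

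**Figure D5:**
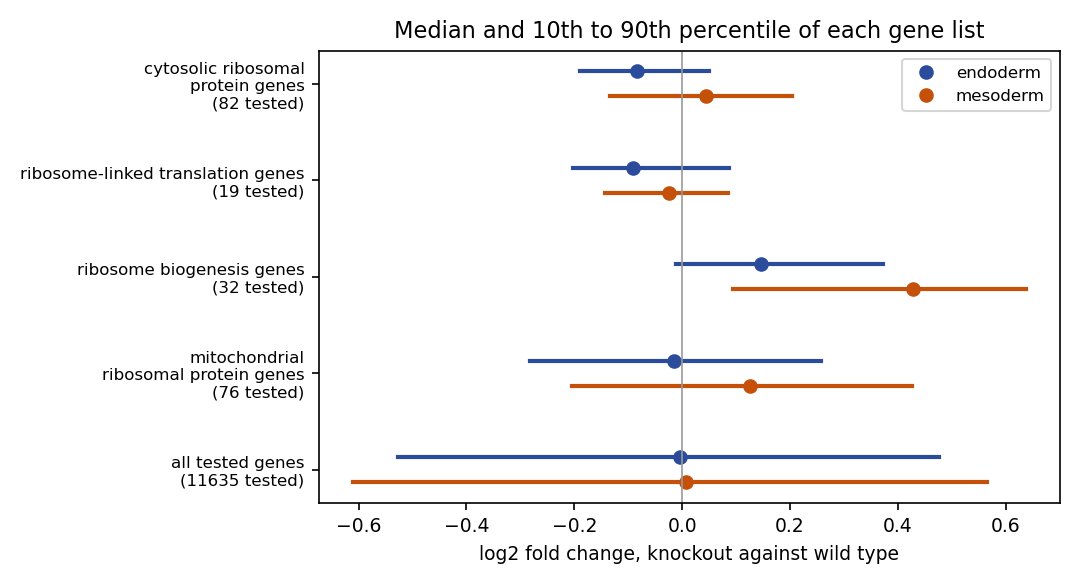
Median (point) and 10th to 90th percentile (line) of the log2 fold change of arid4b∆ (knockout) against wild type in 4 gene lists and all tested genes, in endoderm and mesoderm. The members sit at −0.08 and 0.04 with a narrow spread, and the ribosome biogenesis genes at 0.15 and 0.43.

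Regulators of ribosomal protein synthesis were mixed. Of 18 genes of the mTOR pathway and of Myc and its partners, 2 were called higher (11.1%) and 4 lower (22.2%) in endoderm and 2 higher and 2 lower (11.1% each) in mesoderm, beside 5.78% and 6.92% of all tested genes in endoderm and 8.97% and 10.1% in mesoderm. Over the alternatives 0 to 2 were called higher and 1 to 4 lower in endoderm, and 0 to 3 and 1 to 2 in mesoderm. Mycn rose in both lineages (log2 fold change 0.51 and 0.70, edgeR adjusted p = 0.0108 and 0.00131), as did Eif4ebp1, the mTOR-controlled repressor of the cap-binding protein eIF4E (0.71 and 0.69, 0.00146 and 0.00175). Rps6ka2, a kinase of ribosomal protein S6, fell in endoderm (−1.20, 1.12e-06), and Mxd4, a Myc antagonist, in mesoderm (−1.65, 0.00512). Mxd4 was low throughout, at 5.16 CPM in wild type and 1.65 in arid4b∆ mesoderm, and 5.3 and 2.04 in endoderm. Mycn was not called in either lineage without the 4 libraries low in short members (0.0621 and 0.0715) or with total counts (0.318 and 0.114). Eif4ebp1 was called in both without those 4 libraries (0.00237 and 0.0232) and in neither with total counts (0.0598 and 0.099). The interaction called 2 genes of the list. Rps6ka2 went from 75.8 to 33.3 CPM in endoderm and from 27.2 to 33.2 in mesoderm (−1.47, 0.000248), and Myc from 20.3 to 14.0 and from 9.75 to 13.8 (−1.004, 0.0312, called in 9 of 21 alternatives). Without the 4 libraries low in short members neither interaction was called (edgeR adjusted p = 0.0566 and 0.361). Of 14 tested p53 targets, which respond to unassembled ribosomal proteins such as Rpl5 and Rpl11, 0 were called higher and 2 lower in endoderm (Perp, −0.93, 0.00324, and Trp53inp1, −0.35, 0.0354) and 1 higher and 1 lower in mesoderm (Bax, 0.41, 0.0468, and Trp53inp1, −0.50, 0.00199). These are 14.3% lower in endoderm and 7.14% in each direction in mesoderm, beside the shares of all genes given above. The call of Bax held in 8 of 22 alternatives, and without the 4 libraries low in short members 0 were called in endoderm and Trp53inp1 alone in mesoderm (0.0311).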

How the data were processed

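Libraries were made from total RNA after ribosomal RNA depletion with a directional kit, per the labels' protocols. The authors deposited whole-number read counts per gene. STAR, DESeq2 and mm10 are named per the submitters' processing notes. Which counter and annotation were used, and whether strand entered the counting, is not given in the sources used here. Counts were tested in R 4.3.3 with edgeR 4.0.16 (TMM scaling, filterByExpr with a minimum count of 10, quasi-likelihood test of 4 group means over all 12 libraries, Benjamini-Hochberg over 11635 genes at 0.05). Rn45s (79.6% to 82.4% of counts) and 26 genes with a date in place of a count, none of them a member, were left out. No 2 libraries held identical counts. The edgeR script was tested on simulated data. Members and lists were chosen with earlier results of these data known. Named members are the copies ending in l or l1 with their partners, members chosen by role, the 6 smallest adjusted p and the largest rise and fall of each comparison, the highest and lowest per length, and those untested; of other lists, the 3 smallest adjusted p. Some genes that this rule names are not reported here. Rps6, Rps20, Rpl26, Rpl30, Rpl34, the chromosome X members, Tmtc1 and the cell type markers were named after their values were seen. Alternatives used DESeq2 1.42.0, limma-voom (3.58.1), other scalings and filters, a replicate block, and fewer libraries.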

Additional observations from a re-analysis of the deposited data

How the results depend on the processing

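Across 22 alternatives, the 129 named pairs of member and comparison gave 2809 values, of which 15 lost a call, 15 gained one and 0 reversed; the calls that changed stand beside their results, or below for the replicate block. For arid4b∆ against wild type in endoderm the count of members called was 0 with total counts, 2 with Mir6236 and Lars2 left out, with no filter, with DESeq2, with the 6 libraries alone and with the replicate block, 3 with limma-voom, and 1 to 3 with 1 library left out. In mesoderm it was 3 with no filter, 1 with total counts and without the 4 libraries low in short members (an alternative chosen after seeing the data), and 1 to 2 with 1 library left out. Between lineages in wild type it was 1 with no filter and 0 to 1 with 1 library left out; in arid4b∆ it was 0 with total counts, DESeq2 or without those 4 libraries, and 0 to 1 with 1 library left out. The interaction stayed at 0 to 0. The cause of these changes was not tested. With 1 library left out the median log2 fold change ranged from −0.178 to 0.025 in endoderm, −0.071 to 0.132 in mesoderm, −0.222 to −0.002 for the interaction, 0.013 to 0.196 between lineages in wild type and −0.076 to 0.109 in arid4b∆. Total counts moved the median to −0.164 in mesoderm and 0.202 between lineages in arid4b∆, where the median of all genes moved to −0.224 and 0.179. Deviations from the group mean correlated by −0.06 to 0.19 between same-numbered libraries. Libraries with different numbers were not compared, so whether a number marks a shared batch was not tested. With the replicate block the counts were 2 in endoderm and 3 in mesoderm. The added calls were Rps4x (edgeR adjusted p = 0.031) and Rpl36 (0.0285). Rpl22l1, with 870 counts in all, is the tested member whose precision depth limits most.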

Other observations

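Of the snoRNA genes that lie inside members, 34 in 23 members, 11 had enough counts to be tested. In mesoderm 1 was called higher in arid4b∆, Snord34, inside Rpl13a (log2 fold change 0.91, edgeR adjusted p = 0.0481), and in endoderm 0 were. Snord32a, inside the same gene, had 1.22 in mesoderm and was not called (adjusted p = 0.0735). These counts can also hold reads of unspliced host transcripts, whose part was not tested.

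Rpl36al, a copy of Rpl36a that the rule left out, stood at 46.6 ± 4.89 and 50.9 ± 8.18 CPM in wild type and arid4b∆ endoderm and 45.7 ± 6.18 and 52.3 ± 6.19 in mesoderm (SD, n = 3; edgeR adjusted p = 0.619 and 0.293). It was not called in either lineage.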
